A study of Mus musculus with 24 samples.

Results

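Whole-kidney RNA of mice 14 days after bilateral ischemia was compared with that of mice 7 days after it, gene by gene, in the 6 unbound libraries of these days out of 24 libraries in the series. All mice were male, 8 to 10 weeks old, of mixed background and of the genotype Kim1-GCE+/-; EGFPL10a+/-, and all received tamoxifen 6 h before and 24 h after surgery, the sham mice included. Injured mice had the pedicles of both kidneys clamped for 20 min and kidneys were taken at day 2, day 7 or day 14, while sham mice had surgery without clamping, and each group held 3 mice. Homogenates were incubated with anti-GFP beads to capture ribosomes tagged in cells in which the Kim1 promoter had driven recombination. The bead fraction is called bound, and the RNA that stayed in the homogenate, which stands for the total kidney, is called unbound. The unbound fraction therefore mixes tubule, vessel, stromal and immune cells, and in such RNA fewer cells of a type and less RNA per cell cannot be told apart.

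After ischemia, surviving proximal tubule cells lose part of their transport and metabolic program, express injury genes such as Havcr1 (Kim1), enter the cell cycle and repopulate the tubule. Macrophages and lymphocytes enter the interstitium and fibroblasts deposit matrix. Where repair succeeds these programs return toward the resting state, and where it fails injury, inflammatory and matrix genes stay high.

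Of 40750 genes in the table, 12909 reached at least 1 RPKM (reads scaled to the length of the gene's exons and to the mapped reads of the library) in at least 3 of the 12 unbound libraries and were tested. The 6 libraries held an estimated 18040000 to 21680000 reads each, derived from the steps between low values: 75.6% to 78.1% of values worth up to 50 reads came out whole within 0.02 reads, against 4.0% by chance. Library profiles correlated with the mean of the other 2 of their day at r = 0.971 to 0.984 for 5 of the 6 libraries and at 0.938 for the library of the third day 14 mouse, which stood apart. In that mouse 413 genes lay at least 1 log2 unit above all 5 other libraries and 65 lay as far below them, against 3 to 25 genes in either direction for each of the others. Counts of unbound genes that passed are therefore given with and without it, between the days and, over all tested genes, against sham. Other calls against sham at day 14 include it unless stated, and may depend on it. Over all tested genes the day 14 mice had, in the order of their numbers, 25.8%, 22.1% and 49.4% above the range of the 3 day 7 mice and 26.7%, 35.9% and 26.0% below it, and the counts of list members above or below that range given later are read against these shares. Between the mean of day 7 and the mean of day 14 the median log2 change over all tested genes was 0.02.

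Changes are differences of log2(RPKM + 0.5), which understates the change of low genes, tested with limma across the 12 unbound libraries and adjusted by Benjamini-Hochberg over all tested genes. Between day 7 and day 14, 12 genes passed an adjusted p under 0.05 (0.093% of the genes tested), of which 11 rose (0.0852%) and 1, Gdpd3, fell (0.00775%). The fall of Gdpd3 was 4.21-fold, and the rises were 1.11 to 1.65 log2 units. At an unadjusted p under 0.05 there were 412 genes higher and 265 lower, and without the third day 14 mouse the balance turned to 297 higher and 538 lower. In all 12 genes the 3 libraries of one day lay wholly above those of the other, a separation also seen in 7.24% of tested genes upward and in 6.1% downward. Without the third day 14 mouse 1 gene passed, Gdpd3, without the second 3 genes passed, and without the first day 14 mouse or any 1 of the 3 day 7 mice 0 passed by limma, with 438 to 738 genes at an unadjusted p under 0.05. The plot of all tested genes shows how far these few genes stood from the bulk.

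**Figure D1:**
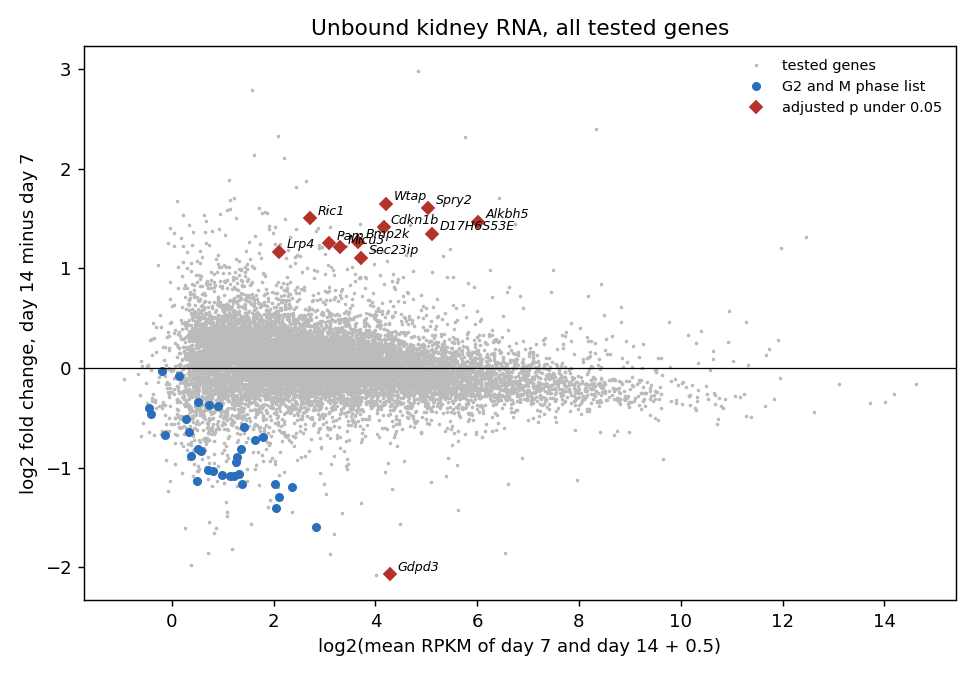
Log2 fold change from day 7 to day 14 in unbound RNA (vertical axis) against log2 mean RPKM + 0.5 (horizontal axis), 1 point per tested gene. Red diamonds are the 12 genes with an adjusted p under 0.05, of which only Gdpd3 lies below 0, and blue circles are the 32 tested genes of the G2 and M phase list, all of which lie below 0.

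Gdpd3 encodes a glycerophosphodiester phosphodiesterase, an enzyme of lysophospholipid metabolism. It measured 26.5, 26.5 and 40.2 RPKM in the 3 mice of day 7 and 8.03, 8.21 and 4.87 RPKM in those of day 14, that is 31.1 ± 7.93 against 7.04 ± 1.88 (SD, n = 3). The log2 change was -2.07 (SE 0.23, adjusted p = 0.0146), and it was -1.85 without the third day 14 mouse (adjusted p = 0.0368). Sham mice lay between the days, at 10.2, 14.0 and 16.4 RPKM, and day 2 mice at 12.1 to 12.8 RPKM. Gdpd3 was thus high at day 7 alone: it passed as higher than sham at day 7 (1.17, adjusted p = 0.0227) and as lower than sham at day 14 (-0.91, adjusted p = 0.0362). The gene lies at chr7:126766334-126775649 on the plus strand of GRCm38, and an antisense gene, Gm9967, overlaps its exons. No source used here gives the strand setting of the counting, so reads of such overlapping genes may not be separable.

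Both an m6A writer subunit and an m6A eraser were among the genes that rose. Wtap, the regulatory subunit that anchors the RNA adenosine methyltransferase, measured 7.37, 8.12 and 9.31 RPKM at day 7 and 21.6, 22.9 and 39.1 RPKM at day 14 (log2 change 1.65, SE 0.23, adjusted p = 0.0450). Alkbh5, an RNA demethylase that removes the same mark, went from 29.5, 35.4 and 37.6 RPKM to 86.9, 96.1 and 102 RPKM (1.47, SE 0.21, adjusted p = 0.0450). The days did not overlap for either gene. Both were highest in the third day 14 mouse, and for Alkbh5 the other 2 mice lay close to it.

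Cdkn1b, which encodes the cyclin-dependent kinase inhibitor p27Kip1, and Spry2, an inhibitor of receptor tyrosine kinase signalling, also rose. Cdkn1b measured 8.38, 9.29 and 9.24 RPKM at day 7 and 20.8, 18.9 and 37.9 RPKM at day 14 (1.41, SE 0.22, adjusted p = 0.0450). Spry2 measured 14.2, 13.1 and 19.0 RPKM at day 7 and 41.6, 35.8 and 71.2 RPKM at day 14 (1.61, SE 0.26, adjusted p = 0.0461). In both genes the third day 14 mouse carried the highest value and the other 2 were still well above day 7. Against sham, Cdkn1b passed as higher at day 14 (1.18, adjusted p = 0.0196), whereas its day 7 value did not pass (-0.23, adjusted p = 0.540).

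The other 7 genes that rose include genes for proteins of membrane traffic, signalling, calcium handling and peptide processing. Ric1, a subunit of a Rab6 exchange factor, measured 2.67, 2.67 and 3.19 RPKM at day 7 and 7.00, 7.79 and 13.1 RPKM at day 14. Sec23ip, a partner of the COPII coat, measured 7.80, 8.28 and 7.35 RPKM against 14.5, 17.3 and 21 RPKM. Micu3, a regulator of the mitochondrial calcium uniporter, measured 5.29, 5.13 and 5.71 RPKM against 11.3, 11.2 and 17.9 RPKM. These 3 genes had tight day 7 values, and the third day 14 mouse lay above the other 2. Pam, the enzyme that amidates peptide hormones, measured 4.60, 4.57 and 4.33 RPKM against 9.41, 11.9 and 13.2 RPKM. Lrp4, a receptor of the LDL receptor family, measured 2.31, 2.06 and 2.10 RPKM against 5.02, 5.82 and 5.59 RPKM. Lrp4 was the 1 gene of the 11 in which the third day 14 mouse was not the highest of its day. Bmp2k, a serine/threonine kinase, measured 5.86, 6.79 and 7.85 RPKM against 14.5, 14.5 and 23.3 RPKM, and D17H6S53E measured 16.7, 18.8 and 21.4 RPKM against 42.1, 46.4 and 60.1 RPKM.

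**Figure D2:**
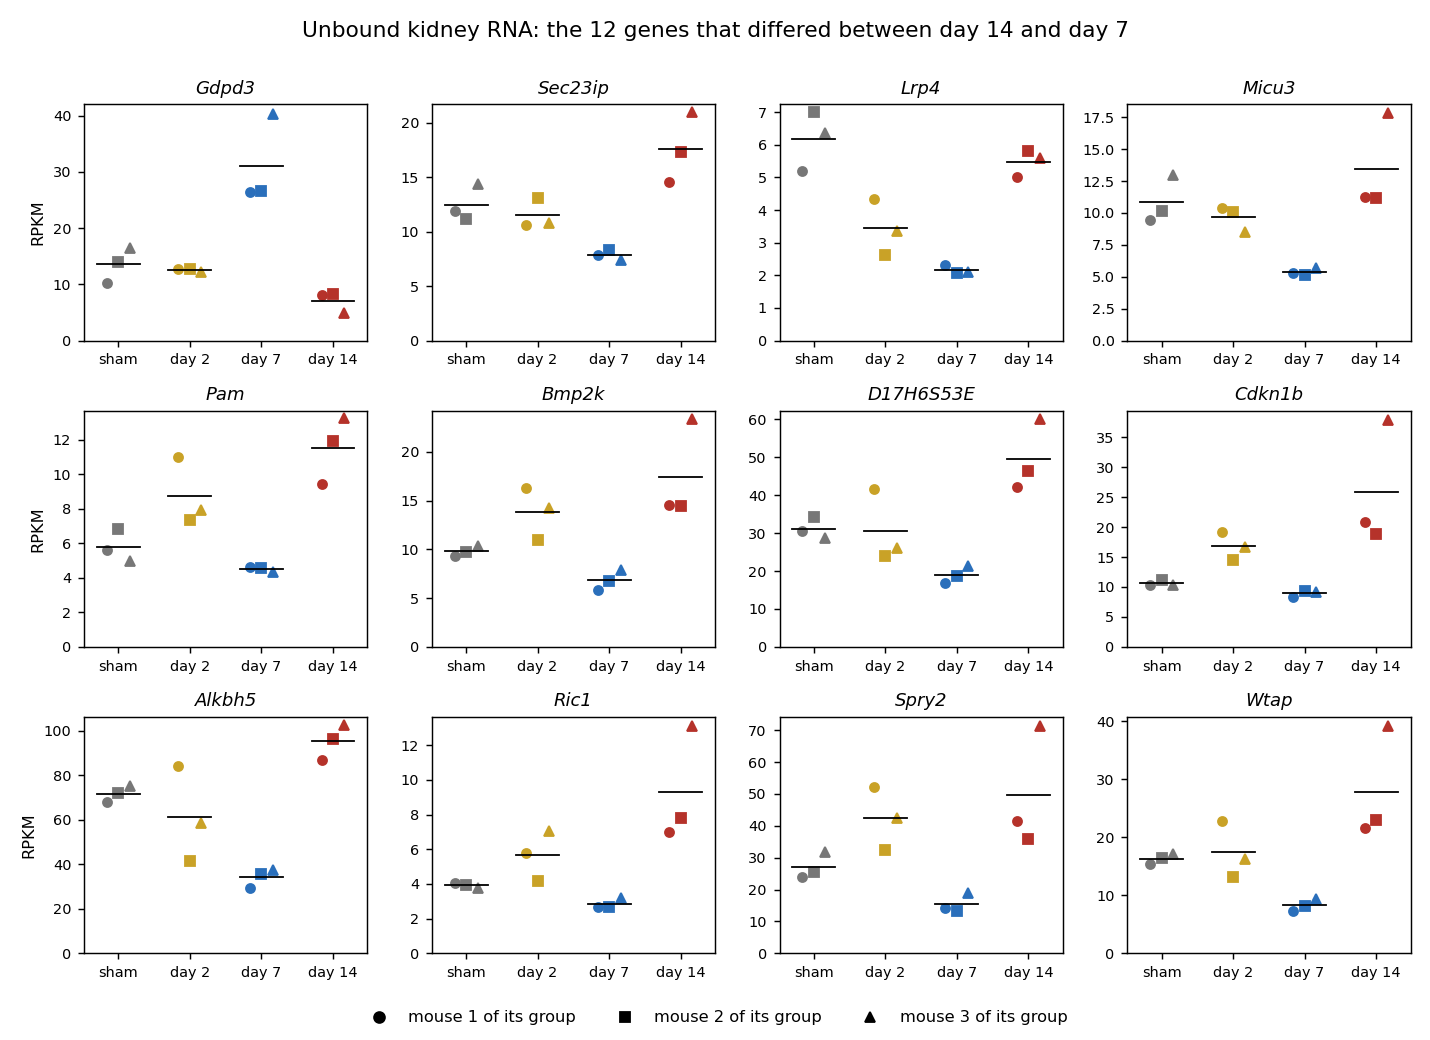
RPKM (vertical axes, from 0) of the 12 genes that passed in each unbound library of the 4 groups, with 1 symbol per mouse and a bar at the mean of 3. Gdpd3 peaks at day 7, at 26.5 to 40.2 RPKM, and the other 11 are lowest at day 7.

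A common shape joined the 11 rises: each was lowest at day 7. In all 11 genes the 3 day 7 libraries lay below the 3 sham libraries (7.86% of all tested genes) and below the 3 day 2 libraries (15%), and in 9 of them the 3 day 14 libraries lay above the 3 sham libraries (29%). The genes were chosen on their day 7 and day 14 values, and each of these comparisons uses one of those days, so none is independent of the choice. In the same fit 5 of the 11 passed as lower than sham at day 7 (0.612% of tested genes) and 4 passed as higher than sham at day 14 (8.58%). Lrp4 was the largest of the former, at -1.32 (adjusted p = 0.0063), and returned to 5.02 to 5.82 RPKM at day 14 against 5.2 to 6.99 RPKM in sham mice. Without the third day 14 mouse the 11 changes were 0.98 to 1.41 log2 units with adjusted p of 0.0676 to 0.120, so none passed. By GRCm38 annotation 5 of the 11 genes (Bmp2k, D17H6S53E, Micu3, Pam and Sec23ip) have exons that overlap another gene.

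An RNA composition measure also differed between the 2 days. The protein-coding share of summed RPKM was 94.2% to 94.3% at day 7 and 93.4%, 93.0% and 91.4% in the 3 mice of day 14. It was 95.2% to 96.7% in sham mice and 93.4% to 94.7% at day 2. Whether this share had a part in the 11 rises was not tested. Gm42418, a noncoding gene that overlaps ribosomal RNA sequence, measured 3301, 3037 and 3065 RPKM at day 7 and 5228, 8082 and 11266 RPKM at day 14 (1.32, adjusted p = 0.243). Actb, the cytoplasmic actin often used as a reference, measured 1705, 2295 and 2873 RPKM at day 7 and 3820, 3805 and 9453 RPKM at day 14 (1.20, adjusted p = 0.423). Gm42418 and Actb were chosen after their values were seen. Neither gene passed, the 2 days did not overlap in either, and their part in the 11 rises was not tested.

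Kdm6b, a histone H3 lysine demethylase, was higher at day 14 but missed the threshold, at 5.50, 4.67 and 5.36 RPKM against 10.5, 12.8 and 19.4 RPKM (1.33, adjusted p = 0.0615). Notch2, a receptor with roles in proximal tubule formation, missed it as well, at 2.99, 3.29 and 4.36 RPKM against 8.74, 9.88 and 17.6 RPKM (1.59, adjusted p = 0.0678). Its ligand Jag1 measured 7.35, 5.50 and 6.41 RPKM against 9.88, 7.88 and 30.3 RPKM, where the third day 14 mouse made most of the difference (1.01 with it and 0.44 without it). Among the 19 tested nephron development factors none passed and the median change was 0.01.

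With Gdpd3 the sole fall that passed, the next genes lower at day 14 are given as values. Cdkn3, a phosphatase that acts on cyclin-dependent kinases, measured 12.9, 13.1 and 12.7 RPKM at day 7 and 1.84, 3.01 and 5.51 RPKM at day 14 (-1.87, adjusted p = 0.483). Rbp7, a retinol-binding protein, measured 9.74, 20.1 and 10.6 RPKM against 3.62, 5.36 and 2.53 RPKM (-1.67, adjusted p = 0.402). Cdkn3 was highest at day 2, at 31.8 to 61.9 RPKM, and its day 7 values lay between day 2 and sham. Cyp4a12b, an androgen-dependent fatty acid hydroxylase, measured 4.60, 2.18 and 8.31 RPKM against 2.01, 1.25 and 1.02 RPKM (-1.39, adjusted p = 0.439) and lay below sham at day 14 (-2.44, adjusted p = 0.0119). Tubg1, the gamma-tubulin that nucleates microtubules, measured 16.6, 15.1 and 15.9 RPKM against 11.5, 8.95 and 9.48 RPKM (-0.65, adjusted p = 0.483). A further 6, namely Mocos, Klhdc8a, Rab34, Pfdn1, Fkbp11 and Lims2, had changes between -0.69 and -0.46 with no overlap of the days, and their smallest adjusted p was 0.205 (Mocos).

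Genes of cell division were below their day 7 level at day 14 in all 32 tested members, although no member passed alone. The promoters of 4 of them are shown first, because they carry the 2 short elements for which genes of this phase are known, the cell cycle homology region (CHR, TTTGAA), bound by the MuvB core of the DREAM and B-MYB complexes, and the CCAAT box, bound by NF-Y. Each line holds the 250 bases before the RefSeq start site on the gene's own strand (RefSeq, GRCm38.p6), and capitals mark TTTGAA and CCAAT on either strand. The windows are chr7:135716380-135716629 (minus strand) for Mki67, chr10:69352913-69353162 (minus) for Cdk1, chr4:118437344-118437593 (minus) for Cdc20 and chr2:164769679-164769928 (plus) for Ube2c.
Mki67: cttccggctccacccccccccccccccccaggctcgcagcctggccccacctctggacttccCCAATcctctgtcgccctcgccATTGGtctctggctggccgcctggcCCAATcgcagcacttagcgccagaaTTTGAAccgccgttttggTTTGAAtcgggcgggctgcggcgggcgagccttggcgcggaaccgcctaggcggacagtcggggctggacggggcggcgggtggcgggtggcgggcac
Cdk1: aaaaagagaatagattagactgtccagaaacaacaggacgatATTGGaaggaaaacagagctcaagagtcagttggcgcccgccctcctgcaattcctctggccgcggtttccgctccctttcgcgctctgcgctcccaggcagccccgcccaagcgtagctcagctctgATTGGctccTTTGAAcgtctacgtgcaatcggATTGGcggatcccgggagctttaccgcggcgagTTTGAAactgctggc
Cdc20: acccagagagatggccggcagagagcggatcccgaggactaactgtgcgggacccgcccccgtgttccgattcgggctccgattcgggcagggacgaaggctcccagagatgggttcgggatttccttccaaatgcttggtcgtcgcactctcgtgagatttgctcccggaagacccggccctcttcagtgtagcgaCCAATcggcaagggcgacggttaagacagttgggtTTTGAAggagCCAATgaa
Ube2c: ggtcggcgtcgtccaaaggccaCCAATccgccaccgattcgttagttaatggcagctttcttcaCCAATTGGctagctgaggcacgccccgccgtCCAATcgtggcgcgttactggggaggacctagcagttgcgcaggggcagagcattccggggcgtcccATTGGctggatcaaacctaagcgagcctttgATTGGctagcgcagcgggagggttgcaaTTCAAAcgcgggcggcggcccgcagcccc

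Mki67 and Cdk1 each held 2 CHR and 3 CCAAT matches, Cdc20 held 1 and 2, and Ube2c held 1 and 6. Of the 32 tested G2 and M phase genes, 27 had a window of 300 bases (250 before to 50 after the start) in the RefSeq table. TTTGAA stood in 21 of the 27 (77.8%), against 18.1% of all 27025 windows, and CCAAT in 23 (85.2%) against 37.9%. Both stood in 19 (70.4%) against 7.12%. Genes of this phase were known for these elements beforehand, so high shares follow from the choice of list. They carry no information on the change between the days. A match describes the letters in the window and is not a measured site.

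In the G2 and M phase list, 0 of 32 tested genes passed by limma, and at an unadjusted p under 0.05 there were 17 lower and 0 higher. All 32 log2 changes were below 0, with a median of -0.86 against 0.02 for all tested genes, and 22 of the 32 had no overlap between the days in the downward direction (6.1% of all tested genes). Mki67, the proliferation marker Ki-67, measured 2.85, 2.69 and 2.25 RPKM at day 7 and 0.812, 0.497 and 1.85 RPKM at day 14 (-1.09, adjusted p = 0.717). Ccnb2, a mitotic cyclin, measured 11.9, 10.8 and 7.55 RPKM against 2.45, 1.94 and 5.12 RPKM (-1.60, adjusted p = 0.778). For both genes the third day 14 mouse was the highest of its day and still below every day 7 mouse.

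The 3 other genes with printed promoters, chosen after their values were seen, had that order too. Cdk1, the kinase that drives mitosis, measured 6.24, 4.90 and 5.13 RPKM at day 7 and 1.43, 1.26 and 2.74 RPKM at day 14. Cdc20 and Ube2c are the activator and the ubiquitin-conjugating enzyme of the anaphase-promoting complex. Cdc20 measured 8.77, 5.90 and 5.37 RPKM against 2.61, 1.87 and 3.45 RPKM, and Ube2c measured 4.98, 4.77 and 5.54 RPKM against 1.95, 1.27 and 3.09 RPKM. The spindle genes Prc1 (-1.04, adjusted p = 0.737) and Hmmr (-1.13, adjusted p = 0.737) had no overlap between the days either.

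Each day 14 mouse was also set against the range of the 3 day 7 mice. In the first mouse 30 of the 32 genes lay below that range, in the second 31 and in the third 23, more than the shares of all tested genes given above. The list median relative to the sham mean was 1.45, 1.12 and 1.17 log2 units in the 3 mice of day 7 and 0.33, 0.08 and 0.95 in those of day 14. It was 2.45 to 3.49 at day 2, so day 7 lay on the way down. In sham mice it was -0.26, -0.23 and 0.58: the third sham mouse had more cell division RNA than the first and second day 14 mice. Against sham, 10 of the 32 passed as higher at day 7 (3.94% of tested genes) and 0 at day 14 (8.58%). The median change from day 7 was -1.12 without the third day 14 mouse and -0.57 without the second.

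**Figure D3:**
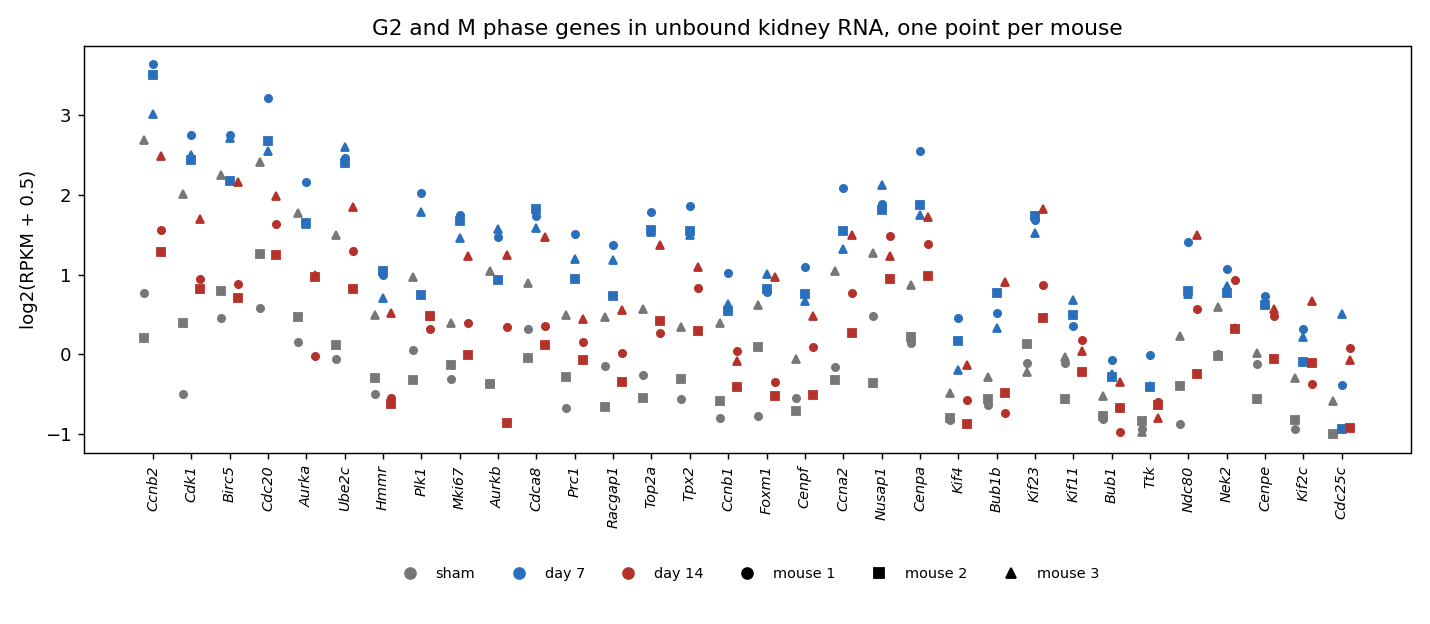
Log2(RPKM + 0.5) of the 32 tested G2 and M phase genes (horizontal axis, ordered by change from day 7 to day 14) in sham, day 7 and day 14 mice, 1 symbol per mouse. The day 14 symbols lie below all 3 day 7 symbols for 30 genes in the first mouse, 31 in the second and 23 in the third.

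Genes of the G1 and S phases had a median nearer 0. Of 30 tested genes 0 passed and 28 were below 0, with a median of -0.35, and 1 was lower and 0 higher at an unadjusted p under 0.05. The third day 14 mouse did not share the lower level: it had 7 genes below and 7 above the day 7 range, against 23 below in each of the other mice. The median was -0.53 without that mouse and -0.21 without the second. E2f1, a transcription factor of the G1 to S transition, measured 4.12, 4.21 and 3.83 RPKM at day 7 and 2.28, 1.73 and 2.73 RPKM at day 14 (-0.74, adjusted p = 0.912). Mcm7, a subunit of the replicative helicase, measured 6.35, 6.64 and 6.24 RPKM against 3.95, 4.40 and 5.36 RPKM (-0.45, adjusted p = 0.912). Both genes had no overlap between the days.

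Tubule injury genes parted between the mice of day 14. Of 32 tested genes 0 passed, and 2 were lower and 0 higher at an unadjusted p under 0.05. In the first and second day 14 mice 23 and 30 of the 32 lay below the day 7 range, and in the third mouse 1 lay below it and 21 lay above it (65.6%, against 49.4% of all tested genes). The list median relative to sham was 1.52, 1.32 and 1.92 at day 7 and 0.94, 0.67 and 2.44 at day 14. The change from day 7 had a median of -0.24 with the third mouse and -0.71 without it.

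Havcr1, the gene whose promoter marks the tagged cells, measured 38.1, 54.9 and 125 RPKM at day 7 and 18.4, 20.6 and 34.3 RPKM at day 14. The days did not overlap, and the change was -1.42 (SE 0.59, adjusted p = 0.912). It passed against sham at day 7 (3.00, adjusted p = 0.0217) and did not pass at day 14 (1.58, adjusted p = 0.0966), and the third sham mouse held 24.1 RPKM against 3.93 and 4.32 in the others. Krt20, a keratin of injured tubule cells, measured 7.82, 9.84 and 24.8 RPKM at day 7 and 6.45, 3.36 and 10.5 RPKM at day 14 (-0.96, adjusted p = 0.912), against 0.359 to 0.715 RPKM in sham mice. Itgb6, an integrin subunit that activates TGF-beta, measured 18.5, 25.7 and 31.9 RPKM against 18.0, 13.4 and 16.1 RPKM (-0.64, adjusted p = 0.743) and had no overlap between the days.

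Other injury genes were high in the third day 14 mouse. Lcn2, a secreted siderophore-binding protein, measured 50.3, 15.8 and 34.6 RPKM at day 7 and 19.5, 13.4 and 80.9 RPKM at day 14 (-0.12, adjusted p = 0.990). Spp1, osteopontin, measured 2894, 1786 and 4270 RPKM against 1491, 1195 and 4432 RPKM (-0.49, adjusted p = 0.937). Sox9, a transcription factor of regenerating tubule cells, measured 4.74, 4.31 and 6.80 RPKM against 4.51, 2.40 and 12.2 RPKM (SE of the change 0.46), with the day means level. For these 3 genes the mean hid a spread in which 1 or both of the first mice were below day 7 and the third was above it. Vcam1, an adhesion molecule of unrepaired tubule cells and endothelium, measured 9.39, 12.3 and 26.6 RPKM against 8.46, 6.49 and 26.6 RPKM. Cdkn1a, the p53 target p21, measured 23.1, 20.0 and 30.0 RPKM against 16.3, 11.2 and 35.6 RPKM. Against sham, 18 of the 32 injury genes passed as higher at day 7 (3.94% of tested genes), and 13 at day 14 (8.58%), or 8 without the third mouse (1.56%).

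The 24 tested genes that mark unresolved proximal tubule injury shared part of this split. In the first and second day 14 mice 10 and 21 of them lay below the day 7 range. In the third mouse 1 lay below it and 12 lay above it, a share close to the 49.4% of all tested genes. The list median relative to sham was 1.81, 1.77 and 2.33 at day 7 and 1.33, 1.19 and 2.71 at day 14. None of the 24 genes passed between the days, and 1 was lower and 0 higher at an unadjusted p under 0.05. The median change was -0.34 with the third day 14 mouse and -0.67 without it. Ccl2, a monocyte chemokine named after its values were seen, measured 20.3, 61.1 and 115 RPKM at day 7 and 25.1, 13.2 and 55.5 RPKM at day 14. Ccl5, a T cell chemokine, measured 45.3, 144 and 223 RPKM against 56.4, 26.4 and 86.2 RPKM (-1.16, adjusted p = 0.912). Cxcl1, a neutrophil chemokine, measured 9.06, 11 and 28.3 RPKM against 8.48, 4.46 and 15.7 RPKM (-0.71, adjusted p = 0.925). All 3 chemokines overlapped between the days, and all 3 passed as higher than sham at both days, where sham mice held at most 2.05, 15.7 and 1.03 RPKM.

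**Figure D4:**
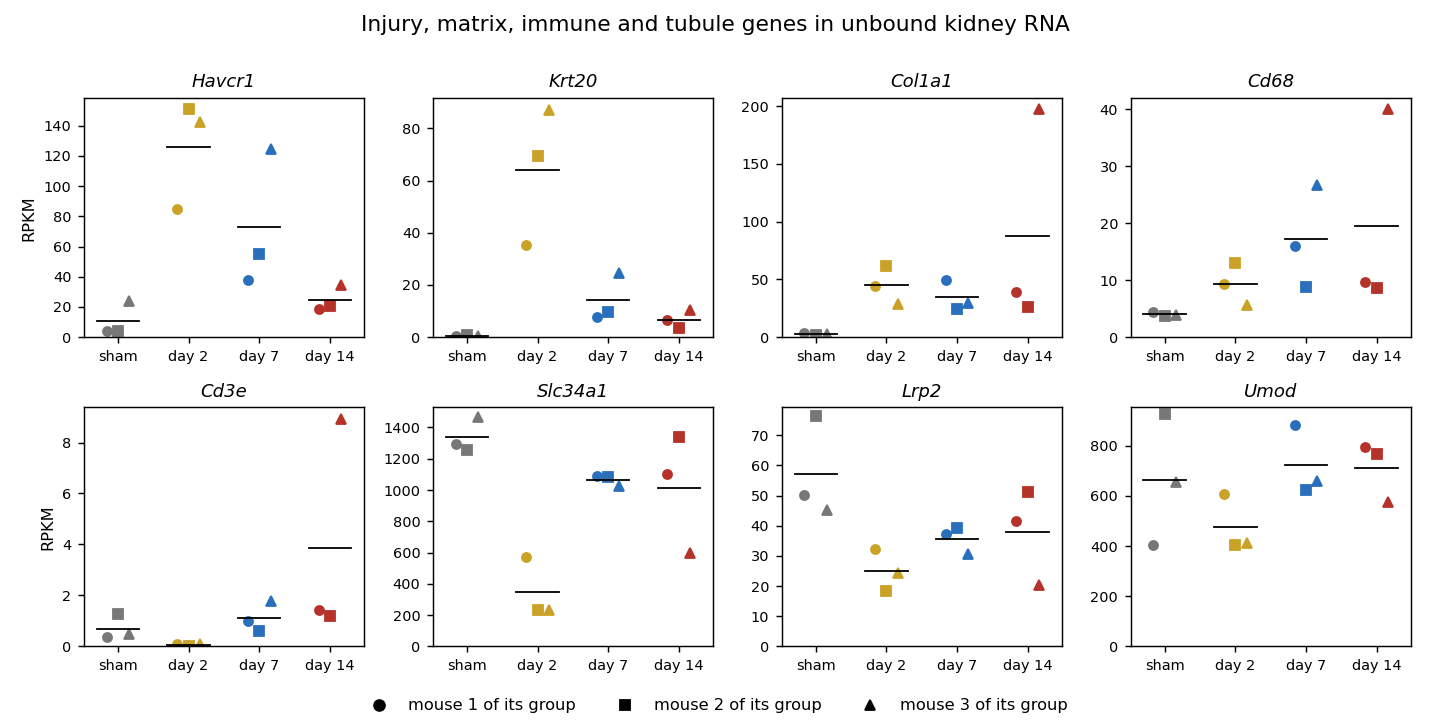
RPKM (vertical axes, from 0) of 8 genes of injury (Havcr1, Krt20), matrix (Col1a1), macrophages (Cd68), T cells (Cd3e), proximal tubule (Slc34a1, Lrp2) and thick ascending limb (Umod) in each unbound library, with 1 symbol per mouse and a bar at the mean of 3. The triangle of day 14, the third mouse, is highest of its day for the injury, matrix and immune genes and lowest for Slc34a1, Lrp2 and Umod.

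Proximal tubule genes mirrored this split. Of 33 tested transport genes 0 passed, and 0 were below an unadjusted p of 0.05 in either direction. In the second day 14 mouse 22 of them lay above the day 7 range (66.7%, against 22.1% of all tested genes). In the first 6 did (18.2%, against 25.8%), and in the third 28 lay below it (84.8%, against 26.0%). Slc34a1, the sodium-phosphate cotransporter, measured 1089, 1082 and 1027 RPKM at day 7 and 1102, 1341 and 598 RPKM at day 14, with sham mice at 1256 to 1466 RPKM. Lrp2, the endocytic receptor megalin, measured 37.2, 39.4 and 30.5 RPKM against 41.6, 51.3 and 20.4 RPKM. The list median change was -0.10 with the third mouse and 0.16 without it.

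Proximal tubule metabolism genes were also low in the third day 14 mouse: 0 of 37 passed, with 1 higher and 2 lower at an unadjusted p under 0.05. The third day 14 mouse had 33 of the 37 below the day 7 range, and the first and second had 15 and 16 above it. Agmat, an agmatinase, measured 3.13, 5.44 and 4.41 RPKM at day 7 and 3.39, 3.60 and 0.516 RPKM at day 14. Cndp2, a cytosolic dipeptidase, measured 945, 1236 and 901 RPKM against 695, 702 and 321 RPKM (-0.92, adjusted p = 0.846) and had no overlap. Ttc36, a liver and kidney protein, went the other way in all 3 mice, from 103, 132 and 73.3 RPKM to 521, 684 and 416 RPKM (2.40, adjusted p = 0.598), and sham mice ranged from 122 to 625 RPKM. The list median relative to sham was -0.42, -0.27 and -0.56 at day 7 and -0.31, -0.24 and -1.32 at day 14.

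Among 34 tested fatty acid oxidation and peroxisome genes 0 passed and 0 were below an unadjusted p of 0.05, and 27 lay below the day 7 range in the third day 14 mouse. Cpt1a, which loads fatty acids for import into mitochondria, measured 66, 55.1 and 44.4 RPKM at day 7 and 72.1, 73.3 and 55.6 RPKM at day 14 (0.29, adjusted p = 0.932). Of 39 oxidative phosphorylation genes encoded in the nucleus 0 passed, with 1 higher and 1 lower at an unadjusted p under 0.05. In the third mouse 37 lay below the day 7 range, against 9 and 9 in the others. The change was below 0 in 37 members, with a median of -0.21, or -0.02 without the third mouse. The days did not overlap downward in 7 members (6.1% of all tested genes) and upward in 1 (7.24%). Only 2 members were above 0, Cox5a among them. Cox5a, a cytochrome c oxidase subunit, measured 275, 281 and 192 RPKM against 451, 471 and 404 RPKM (0.84, adjusted p = 0.627), whereas Atp5g1, an ATP synthase subunit, measured 16.7, 18.3 and 15.7 RPKM against 14.9, 14.4 and 10.1 RPKM (-0.37, adjusted p = 0.912). The 7 tested genes of the mitochondrial genome were all above 0, with a median of 0.28, and none passed. The other 6 of 13 (mt-Co2, mt-Co3, mt-Atp6, mt-Atp8, mt-Nd3 and mt-Nd4l) are listed at 0 to 1.04 RPKM in the unbound libraries of these days although every cell uses them, which limits any reading of the mitochondrial values. Among the 7 tested genes mt-Nd5, a complex I subunit, measured 398, 356 and 392 RPKM against 533, 484 and 557 RPKM (0.46, adjusted p = 0.867).

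Matrix genes of the first 2 day 14 mice lay mostly in or below the day 7 range, and those of the third lay above it. Of 35 tested matrix and fibrosis genes 0 passed, and 0 were below an unadjusted p of 0.05 in either direction. All 35 lay above the day 7 range in the third day 14 mouse (49.4% of all tested genes did), against 5 in the first and 0 in the second. Col1a1, the main chain of fibrillar collagen, measured 49.7, 24.5 and 30.0 RPKM at day 7 and 38.8, 26.4 and 197 RPKM at day 14, with sham mice at 1.79 to 3.25 RPKM. Mmp12, the macrophage metalloelastase, measured 0.609, 0.809 and 1.28 RPKM against 0.882, 1.01 and 9.23 RPKM (0.99, adjusted p = 0.914). The proteoglycan Dcn measured 25.7, 19.2 and 29.2 RPKM against 31.2, 21.3 and 92.2 RPKM (0.69, adjusted p = 0.914). The median change was 0.26 with the third mouse and -0.31 without it.

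At day 7, 18 of the 35 passed as higher than sham (3.94% of tested genes), and at day 14 27 passed (8.58%), or 18 without the third mouse (1.56%). The list median relative to sham was 1.70, 1.25 and 1.60 in the mice of day 7 and 1.4, 1.21 and 2.86 in those of day 14. Stromal and pericyte markers followed, at 1.05, 0.74 and 1.07 against 1.15, 0.69 and 2.49. Rgs5 and Pdgfra had no overlap between the days. Rgs5, a pericyte G protein regulator, measured 8.53, 9.58 and 9.81 RPKM against 27.6, 11.2 and 24.7 RPKM (1.05, adjusted p = 0.395). Pdgfra, a PDGF receptor of fibroblasts, measured 3.20, 2.14 and 3.29 RPKM against 5.39, 4.11 and 13.5 RPKM (1.12, adjusted p = 0.737).

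Macrophage RNA parted in the same way. Of 21 tested macrophage markers 0 passed, with 1 higher and 0 lower at an unadjusted p under 0.05. In the first and second day 14 mice 14 and 17 of them lay below the day 7 range, and in the third mouse 20 lay above it, where 49.4% of all tested genes did. Cd68, a lysosomal protein of macrophages, measured 16, 8.88 and 26.7 RPKM at day 7 and 9.71, 8.61 and 40.1 RPKM at day 14. Cd14, a lipopolysaccharide co-receptor, measured 23.2, 22.1 and 51.2 RPKM against 15.3, 7.21 and 57.8 RPKM (-0.65, adjusted p = 0.937). Mertk, a receptor for engulfing dead cells, was the member with no overlap, at 5.88, 6.74 and 5.85 RPKM against 8.48, 9.30 and 10.7 RPKM (0.58, adjusted p = 0.905). The summed level of the whole list of 22 was 559 to 1197 RPKM at day 7, and 534, 439 and 2370 RPKM at day 14, with none of the 22 at 0 throughout and sham mice at 97.4 to 151 RPKM.

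T and NK cell markers were highest in the third day 14 mouse. All 11 tested members lay above the day 7 range there (49.4% of all tested genes did), against 1 and 0 in the other mice, and 0 passed between the days or at an unadjusted p under 0.05. Cd3e, a chain of the T cell receptor complex, measured 0.980, 0.610 and 1.78 RPKM at day 7 and 1.45, 1.20 and 8.93 RPKM at day 14 (1.02, adjusted p = 0.912). Cd209a, a dendritic cell lectin, measured 0.759, 0.715 and 2.05 RPKM against 5.93, 1.70 and 6.47 RPKM (1.55, adjusted p = 0.484). B and plasma cell RNA ran against this order: the list of 10 tested genes had a median relative to sham of 0.65, 0.32 and -1.70 in the mice of day 14. In sham mice the same list spanned -1.67 to 0.82, so it varied as much without injury.

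Interferon-stimulated genes were lower in the first 2 day 14 mice. Of 33 tested genes 0 passed, with 1 lower and 0 higher at an unadjusted p under 0.05, and the list median relative to sham was 1.17, 1.06 and 1.52 at day 7 and 0.66, 0.85 and 1.63 at day 14. Ifi27l2a, an interferon-induced mitochondrial protein, measured 223, 294 and 501 RPKM at day 7 and 108, 121 and 240 RPKM at day 14 (-1.13, adjusted p = 0.839). Ifit3, an interferon-induced antiviral protein, measured 25.7, 14.3 and 26.1 RPKM against 11.7, 9.71 and 22.7 RPKM (-0.61, adjusted p = 0.914). Antigen presentation genes had 13 and 15 of 21 below the day 7 range in the first and second mice and 21 of 21 above it in the third, and 0 passed, with 0 at an unadjusted p under 0.05. Complement genes (19 tested, 0 passed, 0 at an unadjusted p under 0.05) had 15 above it in the third mouse, and 49.4% of all tested genes lay there.

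For the distal nephron, of 13 thick ascending limb markers, 12 distal convoluted tubule markers, 11 principal cell markers and 15 intercalated cell markers none passed, and 6 in all were higher and 1 lower at an unadjusted p under 0.05. Umod, uromodulin of the thick ascending limb, measured 881, 624 and 661 RPKM at day 7 and 795, 769 and 574 RPKM at day 14. Slc12a1, its sodium-potassium-chloride cotransporter, measured 33.0, 33.3 and 32.5 RPKM against 44.8, 48.7 and 52.1 RPKM (0.55, adjusted p = 0.903) with no overlap. Slc4a9, a bicarbonate transporter of intercalated cells, measured 6.60, 5.59 and 6.32 RPKM against 9.28, 9.60 and 9.42 RPKM (0.58, adjusted p = 0.778). Aqp3, the basolateral water channel of principal cells, measured 18.9, 13.6 and 17 RPKM against 21.7, 23.8 and 27.9 RPKM (0.56, adjusted p = 0.912), and Gata3 measured 11.9, 8.95 and 8.5 RPKM against 12, 14.6 and 15.8 RPKM (0.52, adjusted p = 0.737). Npnt of the same list was the 1 member lower at an unadjusted p under 0.05 by limma, and 4 of its 11 members were below 0. Above the day 7 range lay 7, 5, 2 and 10 members of the 4 lists in the first day 14 mouse. In the second mouse 7, 9, 5 and 11 lay above that range. Of all tested genes, 25.8% and 22.1% lay above it in these mice. Below it lay 0, 1, 3 and 0 members in the first mouse and 1, 0, 2 and 0 in the second. In the third day 14 mouse 4, 4, 3 and 4 members lay below that range and 1, 5, 5 and 5 above it. The shares below were 30.8%, 33.3%, 27.3% and 26.7%, against 26.0% of all tested genes in that mouse. The median changes were 0.10, 0.20, 0.13 and 0.23. Without that mouse they were 0.31, 0.27, 0.10 and 0.37, and without the second day 14 mouse -0.00086, 0.0997, 0.10 and 0.14. The principal cell median was 0.0068 without the third day 7 mouse.

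**Figure D5:**
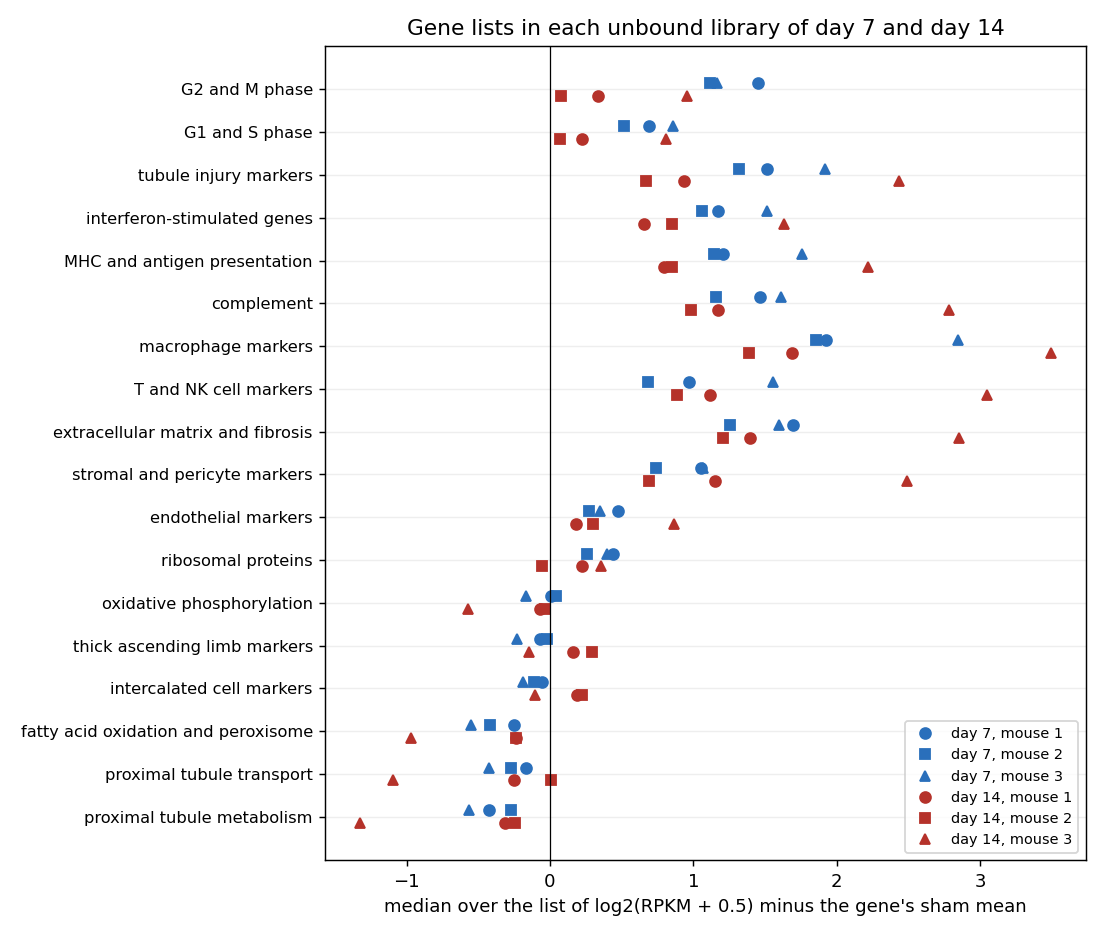
Median over each gene list of log2(RPKM + 0.5) minus the gene's mean in sham mice (horizontal axis) for 18 lists (vertical axis), with 1 symbol per mouse of day 7 (blue) and day 14 (red). The third day 14 mouse, the red triangle, lies right of every other mouse for the injury, interferon, antigen presentation, complement, macrophage, T cell, matrix and stromal lists and left of them for the proximal tubule lists, and all 3 red symbols lie left of the blue ones for G2 and M phase.

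Among the genes furthest above or below the other 5 libraries in the third day 14 mouse, 5 are named here after their values were seen. Gpnmb, a glycoprotein of lipid-laden macrophages, measured 16.5 RPKM there and 0.182 to 1.03 RPKM in the other 5 mice, and Arg1, arginase of alternatively activated macrophages, measured 10.1 RPKM against 0.137 to 0.636 RPKM. Mmp7, a matrix protease of injured tubules, measured 19.7 RPKM against 0.487 to 2.28 RPKM, and the chemokine Ccl8 measured 94.4 RPKM against 4.42 to 17.4 RPKM. On the low side Igkc, the immunoglobulin kappa chain, measured 57.0 RPKM against 238 to 808 RPKM. The bound library of the same mouse carried the first 4 as well, at 17.1 RPKM for Gpnmb, 11.7 RPKM for Arg1, 24.0 RPKM for Mmp7 and 91.0 RPKM for Ccl8, each the highest of the 6 bound libraries of these days. Marker lists for adrenal cortex and skeletal muscle stayed low in all 6 unbound libraries, at summed levels of 5 to 9.94 and 12.3 to 41.9 RPKM, with Cyp11b2, Cyp21a1 and Nr5a1 and with Myh2, Myh4 and Myl1 listed at 0. An entry of 0 need not mean that a gene is not expressed, since mt-Atp6, mt-Atp8 and mt-Nd4l are listed at 0 in the same libraries.

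Bound RNA of the same mice gave no call between the days. By limma 0 of 12779 tested genes passed (0%), and 454 were below an unadjusted p of 0.05. Gdpd3 measured 30.0, 24.3 and 24.5 RPKM in the bound libraries of day 7 and 27.0, 14.7 and 8.65 RPKM in those of day 14 (-0.77, adjusted p = 0.999). Of the 11 genes that rose in unbound RNA, 6 were higher and 5 lower in bound RNA, with changes of -0.57 to 0.58. The bound library of the third day 14 mouse was the lowest of its day for 9 of the 11 (26.6% of the 12363 genes tested in both fractions) and below every bound day 7 library for 7 (25.3%), although the unbound library of that mouse was the highest of its day for 10. Alkbh5 shows this: bound RNA held 76.7, 89.8 and 97.6 RPKM at day 7 and 104, 122 and 25.1 RPKM at day 14.

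In the bound libraries of the first and second day 14 mice, 8 and 9 of the 11 genes lay above every bound day 7 library, as did 22.8% and 20.8% of the genes tested in both fractions. The difference between the bound and the unbound change, tested by limma on the bound minus unbound value of each mouse, passed for 0 of 13721 genes (0%), with 666 below an unadjusted p of 0.05 and a lowest adjusted p of 0.292. For the 12 genes that passed in unbound RNA the lowest adjusted p of this difference was 0.763. The G2 and M phase genes were lower at day 14 in bound RNA as well, with a median of -0.73 over 31 tested genes, of which 9 had no overlap downward (7.39% of tested genes) and 0 upward (5.43%).

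Set against sham in the same fit, 587 unbound genes passed at day 7, of which 508 were higher (3.94% of tested genes) and 79 lower (0.612%), and 1271 passed at day 14, of which 1108 were higher (8.58%) and 163 lower (1.26%). Without the third day 14 mouse the day 14 count was 219, of which 201 were higher (1.56%) and 18 lower (0.139%). Leaving out 1 mouse at a time gave 26 to 207 calls at day 7 and 24 to 2088 at day 14, the lowest without the third day 7 mouse (26) and without the first sham mouse (24). The share called higher was 86.5% at day 7 and 87.2% at day 14, and after median-ratio rescaling of the libraries it was 67.9% and 55.9%. As deposited, the median of all tested genes lay 0.18 above sham at day 7 and 0.22 above it at day 14, and changes against sham include that shift. The 2 contrasts share the sham mice, so their counts are given side by side and not compared.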

How the data were processed

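Bound and unbound RNA of 12 mice (24 libraries, 8 groups of 3) was sequenced after low-input library preparation. The authors deposited RPKM values per gene. STAR 2.0.4b, featureCounts 1.4.5 (Subread) and edgeR are named per the submitters' processing notes, while no source used here states a genome build. The table has 41831 lines for 40750 genes, and the 1081 repeated lines hold the same values and were dropped. Depth was derived from the steps of low RPKM values with GENCODE exon lengths.

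The unbound libraries were fitted with limma 3.58.1 in R 4.3.3 on log2(RPKM + 0.5), with 4 group means, a variance trend, a filter of at least 1 RPKM in at least 3 libraries and Benjamini-Hochberg adjusted p under 0.05, all two-sided. The bound libraries were fitted alike, and the difference between fractions was fitted on the bound minus unbound value of each mouse, taking libraries of the same day and number as 1 mouse. In these data same-numbered bound and unbound libraries deviated together, with r from 0.268 to 0.67 in the 12 mice. The script was tested on simulated data.

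Named genes are the 12 with the largest change in each direction among genes that passed whose higher day averaged 5 RPKM or more and whose days did not overlap, with places not filled going to the smallest p. They also include the 4 members of smallest p of each of 44 gene lists, and a fixed set of kidney markers. Some genes that the rule names are not reported here. Genes outside the rule are named as chosen after their values were seen. Members and lists were chosen with earlier results of these data known. Within a group the labels tell the mice apart by number alone, so p-values measure the spread between these samples. Other pseudocounts, filters, scalings, weights and fits were tried.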

Additional observations from a re-analysis of the deposited data

How the results depend on the processing

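The count of genes that passed between day 7 and day 14 in unbound RNA was 12 and rested on the settings, as did its split of 11 higher and 1 lower. It was 11 to 13 with a pseudocount of 0.1 or 1 or quantile normalization and 10 with median-ratio rescaling. It was 3 with no filter on low values (0 higher, 3 lower, 1 shared with the 12), 24 with at least 5 RPKM in 3 libraries, 1 with all 24 libraries in the fit, 0 with only the 6 libraries compared (684 at an unadjusted p under 0.05 by limma), 153 with array quality weights (89 higher, 64 lower), 1 with no variance trend and 27 at an adjusted p under 0.1. Leaving out 1 mouse gave 0 to 3. In bound RNA the count was 1358 with array quality weights, 0 to 2 leaving out 1 mouse and 0 otherwise. Against sham the day 7 count of 587 became 67 with no filter, 155 with all libraries, 2062 with the 6 compared, 266 with quantile normalization (67.7% higher), 2779 with weights, 1541 at 0.1, and 26 to 207 leaving out 1 mouse. The day 14 count of 1271 became 21 with no filter, 717 with at least 5 RPKM, 168 with all libraries, 9 with the 6 compared, 364 with quantile normalization (63.7% higher), 2463 with weights, 2862 at 0.1, and 24 to 2088 leaving out 1 mouse. The difference between fractions had 0 calls in every setting run. Of 747 list medians recomputed over 44 lists, 14 moved by more than the SD of the list's library medians within a day, and 733 did not. That SD includes the third day 14 mouse, so a median could change sign and still not count as moved. The matrix median, for example, went from 0.26 to -0.31 without that mouse. Some settings, such as no variance trend or the replicate block, could not move a median at all. The 733 are therefore no measure of how stable the medians are. Apart from settings that change the genes tested or the samples, the cause was not tested.

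Replicate numbers were also fitted as a block. With the replicate block 3 genes passed between day 7 and day 14 (1 higher, 2 lower), 0 in bound RNA, 368 at day 7 against sham and 692 at day 14 against sham. Same-numbered day 7 and day 14 libraries had deviations correlated at r of 0.0858, 0.337 and 0.369, and differently numbered ones at -0.34 to 0.12. Mice of the 2 days are different animals, so the numbers are not taken to pair mice. Whether same-numbered libraries were processed together is not stated and was not tested.

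With 3 mice per group, a median standard error of 0.226 and 1 divergent mouse, most differences printed as values were not detectable as changes. RPKM does not keep counts, so intervals for counting error are not given.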

Other observations

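Some groups not described above were close to 0 or low in size. Of 18 tested circadian clock genes 15 were above 0 at day 14, with a median of 0.24, 2 higher and 0 lower at an unadjusted p under 0.05, and none passed by limma. The first day 14 mouse lay apart, with a list median relative to sham of -0.31 against 0.29 and 0.38 in the others and -0.25 to -0.10 at day 7, and without the third day 14 mouse the median change was 0.14, without the first 0.38. Nr1d1, the repressor REV-ERBalpha, measured 13.4, 8.17 and 10.8 RPKM at day 7 and 19.3, 19.1 and 14.0 RPKM at day 14 (0.68, adjusted p = 0.778). Bhlhe41, a second clock repressor, measured 3.47, 3.45 and 4.50 RPKM against 4.99, 13.4 and 19.0 RPKM (1.41, adjusted p = 0.778). Neither gene overlapped between the days, and the time of day at which kidneys were taken is not given in the labels used here.

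Of 22 genes of the unfolded protein and integrated stress response 19 were below 0, with a median of -0.23, 3 lower and 0 higher at an unadjusted p under 0.05, and none passed. Hspa5, the endoplasmic reticulum chaperone BiP, measured 53.3, 110 and 98.8 RPKM against 52.3, 51.1 and 58.2 RPKM (-0.63, adjusted p = 0.778), so the first day 7 mouse already lay at the day 14 level. Of 40 ribosomal protein genes 36 were below 0, with a median of -0.19, 7 had no overlap downward (6.1% of all tested genes), and 0 passed or were below an unadjusted p of 0.05 by limma. The second day 14 mouse had 37 of the 40 below the day 7 range and the third had 9, and without the second the median was -0.09. Insig1, a brake on cholesterol synthesis, measured 13.4, 17.9 and 13.0 RPKM against 27.0, 28.2 and 27.7 RPKM (0.89, adjusted p = 0.598), while its list of 25 genes had a median of -0.01.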
